A study of Mus musculus with 6 samples.

Results

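This account follows 10 genes that bind, move or sense zinc and iron in mouse blastocysts: the metallothioneins Mt1 and Mt2, the zinc-sensing transcription factor Mtf1, the zinc transporters Slc30a1 and Slc39a10, the transferrin receptor Tfrc, the ferritin subunits Fth1 and Ftl1, the iron transporter Slc11a2 and the iron regulatory protein gene Ireb2. They were chosen by name, with earlier results of these data known. All 10 were found among the 49993 genes of the deposited count table and among the 14301 genes that passed a filter on low counts. Embryos came from superovulated, naturally mated females primed with 10 IU of PMSG (pregnant mare serum gonadotrophin) and given 10 IU of hCG (human chorionic gonadotrophin) after 48 h. In the in vivo group (3 libraries) development went on in the mother, and blastocysts were collected at day 3.5 by flushing the uterus. In the in vitro group (3 libraries) zygotes fertilised in the mother were taken from the oviduct 19 to 21 h after the second hormone and cultured to the blastocyst stage in KSOM, a potassium-enriched medium, at 37 °C under 5% CO2. All the embryos therefore shared hormone treatment and fertilisation in the body. The study looked for genes linked to shorter telomeres after culture. The sources used here give neither the strain nor how old the cultured embryos were when frozen, and no label says whether replicates had different mothers. P-values therefore reflect only how much these samples vary, which may be partly technical.

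Metallothioneins are small cysteine-rich proteins that hold zinc and copper. When free zinc rises, MTF1 binds metal response elements in their promoters and in that of Slc30a1, whose product exports zinc at the plasma membrane, while Slc39a10 encodes an importer. Cells take up iron as transferrin through the receptor TFRC, carry it out of endosomes with the transporter encoded by Slc11a2 (DMT1), and store the excess in ferritin, a shell of heavy (FTH1) and light (FTL1) chains. IRP2, the product of Ireb2, binds iron-responsive elements, short RNA hairpins, when iron is low: at the 5′ end of ferritin mRNAs this blocks translation, and in the 3′ part of Tfrc mRNA it protects the message from decay.

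The hairpins are shown because Fth1, Ftl1 and Tfrc mRNAs are the textbook targets of IRP2. A search of GENCODE M21 transcripts (GRCm38) for a C, 5 bases, the loop CAGTGN and 5 bases that pair with the first 5 (G-T pairs allowed) found the element once in a 929-base Fth1 transcript (the C at base 93) and a 968-base Ftl1 transcript (base 84), and 4 times in a 4890-base Tfrc transcript (bases 3321, 3700, 3765 and 3812). The loop is in capitals, and T stands for U.
Fth1: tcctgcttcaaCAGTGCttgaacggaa
Ftl1: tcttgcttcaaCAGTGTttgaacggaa
Tfrc, base 3321: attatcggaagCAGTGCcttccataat
Tfrc, base 3700: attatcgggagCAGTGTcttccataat
Tfrc, base 3765: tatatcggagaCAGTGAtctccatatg
Tfrc, base 3812: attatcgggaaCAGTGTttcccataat
The pattern occurred in 0.961% of 58797 protein-coding transcripts, and in at least 1 transcript of 1.34% of 21877 protein-coding genes. A match is a description and not a proven site. No match to this spelling was found in the Slc11a2 transcripts.

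Metal response elements are shown because Mt1, Mt2 and Slc30a1 are the textbook targets of MTF1. The core was searched as TGCACNC and TGCGCNC, on both strands of RefSeq promoter windows (GRCm38.p6, 250 bases before to 50 bases after each RefSeq transcript start). Of 32851 windows, 25.7% held at least 1 core, 7.11% at least 2 and 1.97% at least 3. The Mt2 window held 4 cores, the Mt1 window 3, and the Slc30a1 window 2. The windows of Mtf1, Slc39a10, Ireb2, Fth1 and Ftl1 held none, 1 of 2 Tfrc windows held 2 that overlap each other, and Slc11a2 had no entry. The 250 bases before the Mt2 start (chr8:94172368-94172617, plus strand), with cores in capitals on either strand, were as follows.
Mt2: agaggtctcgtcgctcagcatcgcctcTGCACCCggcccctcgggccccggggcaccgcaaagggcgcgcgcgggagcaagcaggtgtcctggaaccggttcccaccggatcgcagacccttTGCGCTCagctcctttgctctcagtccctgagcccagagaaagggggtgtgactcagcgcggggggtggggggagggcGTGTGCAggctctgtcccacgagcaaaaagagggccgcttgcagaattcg
The other Mt2 core lay just past the start. For Mt1 (plus strand) and Slc30a1 (plus strand), each core is printed with 8 bases on either side. Positions are relative to the RefSeq start used for the window, which for both genes lies inside the gene span. The spans begin at 94178883 for Mt1 and 191906697 for Slc30a1, so cores before the start used also lie within them. Other starts of these genes were not searched.
Mt1, 23 bases before the start (chr8:94179058-94179080): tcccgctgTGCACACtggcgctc
Mt1, from base 3 (chr8:94179083-94179105): gggagctcTGCACTCcgcccgaa
Mt1, from base 21 (chr8:94179101-94179123): ccgaaaagTGCGCTCggctctgc
Slc30a1, 43 bases before the start (chr1:191906730-191906752): ggggttccGAGTGCAaagcaaag
Slc30a1, from base 31 (chr1:191906803-191906825): tccgggccGAGCGCAgtcgccgc

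Library totals ranged from 6918288 to 17643429 counts. Ribosomal RNA rows took 18.4%, 24.4% and 47.8% of all counts in vivo, against 38.6%, 37.8% and 42.1% in vitro, so in vivo replicate 3 stood apart from the other in vivo libraries. In vitro replicate 2 stood apart by sex: it had 7494 Xist counts and 1 count over 4 Y-linked genes. The labels differ on the material: they name blastocysts, embryonic stem cells and, for each library, the inner cell mass of 1 embryo. Markers of the inner cell mass (12 of 12 tested, summed level 1645 to 2700 CPM per library) and of trophectoderm, the outer layer (12 of 12 tested, 737 to 2072 CPM), were both present. The former were positive in vitro minus in vivo for 5 and negative for 7 (median log2 fold change −0.057), the latter positive for 10 and negative for 2 (median 0.47). Trophectoderm markers summed to 1533, 890 and 737 CPM in vivo and to 1242, 2072 and 1759 CPM in vitro, so the groups overlapped. Primitive endoderm markers summed to 430, 364 and 875 CPM in vivo and to 1494, 1048 and 743 CPM in vitro, and all 11 tested had a positive difference (median log2 fold change 1.00), although in vivo replicate 3 exceeded in vitro replicate 3. Red blood cell markers summed to at most 6.12 CPM, with both adult beta-globin genes at 0.

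Of the 14301 genes tested, the quasi-likelihood test of edgeR, adjusted by Benjamini-Hochberg, called none at 0.05 (0%), with 1458 (10.2%) at an unadjusted p below 0.05. DESeq2 called 459 of 16337 (2.81%) and limma-voom 102 (0.713%). Among the 10 genes followed here, edgeR called none, with 4 at an unadjusted p below 0.05: Fth1 and Ftl1 lower in vitro (5.08% of all genes were) and Ireb2 and Mt2 higher (5.11% were). DESeq2 called Fth1 lower (1.27% of all genes were), and limma-voom called Fth1 and Ftl1. The groups did not overlap for 5 of the 10, against 19.3% of all genes tested. Fth1 and Ftl1 lay below (10% of all genes did), and Ireb2, Mt2 and Mtf1 above (9.27% did). Their fitted differences (in vitro minus in vivo) were positive for 7 and negative for 3, with a median log2 fold change of 0.57 against −0.0058 over all genes tested. Levels are given as CPM (counts per 1000000 counts of the library) after TMM (trimmed mean of M values) scaling. In bulk RNA, fewer cells of a type and less RNA per cell cannot be told apart.

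**Figure D1:**
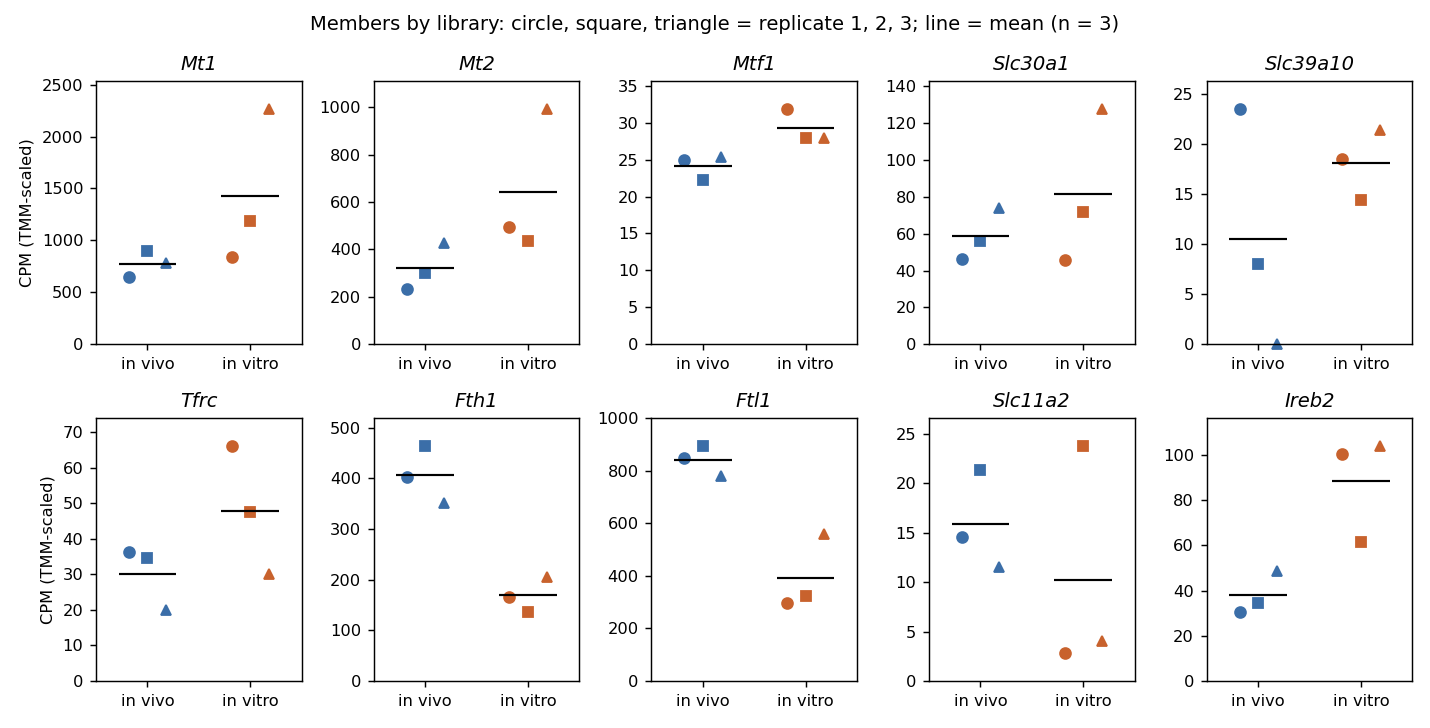
Level of each of the 10 genes (CPM, TMM-scaled, linear axis from 0) in the 3 in vivo (blue) and 3 in vitro (orange) libraries, with the group mean as a line and the replicate number as the point's shape. Fth1 and Ftl1 lay lower in every in vitro library than in any in vivo library, Ireb2, Mt2 and Mtf1 lay higher, and the other 5 overlapped.

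Transcripts of both ferritin chains were lower in every cultured library than in any in vivo library, although edgeR called neither. Ferritin protein was not measured. Fth1, the heavy chain with the site that oxidises iron (chromosome 19, 9980600 to 9985111, plus strand), stood at 402, 464 and 352 CPM in in vivo replicates 1, 2 and 3 and at 165, 136 and 206 CPM in in vitro replicates 1, 2 and 3. The lowest in vivo library was therefore well above the highest in vitro library. The means were 406 ± 56.2 CPM in vivo, against 169 ± 35.2 CPM in vitro (SD, n = 3 each), 2.40-fold lower in vitro. The log2 fold change was −1.27 ± 0.30 (SE), with an adjusted p of 0.315 by edgeR, 0.0280 by DESeq2 and 0.0422 by limma-voom. DESeq2's call was lost when any of 4 libraries was left out, while the log2 fold change stayed between −1.27 and −1.10. Dropping in vivo replicate 1 gave −1.27 (adjusted p = 0.121) and replicate 2 gave −1.15 (0.241), and dropping in vitro replicate 1 gave −1.24 (0.131) and replicate 2 gave −1.10 (0.0806, all DESeq2). The call held without replicate 3 of the in vivo (−1.35, 0.0121) or the in vitro group (−1.42, 0.0108).

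Ftl1, the light chain that aids the laying down of the iron core (chromosome 7, 45457944 to 45459886, minus strand), was at 848, 895 and 780 CPM in vivo, against 297, 323 and 559 CPM in vitro. In vitro replicate 3 was the highest cultured library for both chains and still below every in vivo library. The log2 fold change was −1.10 ± 0.32 (SE), with an adjusted p of 0.362 by edgeR, 0.115 by DESeq2 and 0.0457 by limma-voom. Of the 6 DESeq2 fits that leave out 1 library, 1 called Ftl1: dropping in vitro replicate 3 gave −1.43 (adjusted p = 0.00247). The other 5 ran from −1.14 to −0.92, with adjusted p from 0.0892 to 0.386.

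Ferritin genes have retrocopies, and reads of the light chain were spread over several rows of the table. Over 910 aligned bases the Ftl1-ps1 transcript was 99.6% identical to Ftl1, and Ftl2-ps was 98.7% identical over 552 bases, so the counts of these rows cannot be assigned to one locus with certainty. Ftl1 itself took 41.6%, 40.7% and 49.0% of the counts of the 4 light chain rows in vivo and 47.8%, 52.2% and 53.9% in vitro. Ftl1-ps1 was at 768, 862 and 524 CPM in vivo, against 198, 197 and 309.8 CPM in vitro, and Ftl2-ps at 414, 433 and 271 CPM in vivo, against 114, 92.6 and 159.7 CPM in vitro. Both rows had a log2 fold change of −1.61 and were called lower in vitro by DESeq2 and limma-voom, not by edgeR (adjusted p = 0.306 for each). Summed over the 4 rows, light chain stood at 2040, 2202 and 1592 CPM in vivo, against 620, 618 and 1038 CPM in vitro, a 2.56-fold lower mean in vitro. With the copies summed before testing, a step added after the data were seen, edgeR gave −1.36 (adjusted p = 0.320) and DESeq2 −1.34 (adjusted p = 0.0318) for the light chain, and −1.28 (0.320) and −1.26 (0.0258) for the heavy chain.

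**Figure D2:**
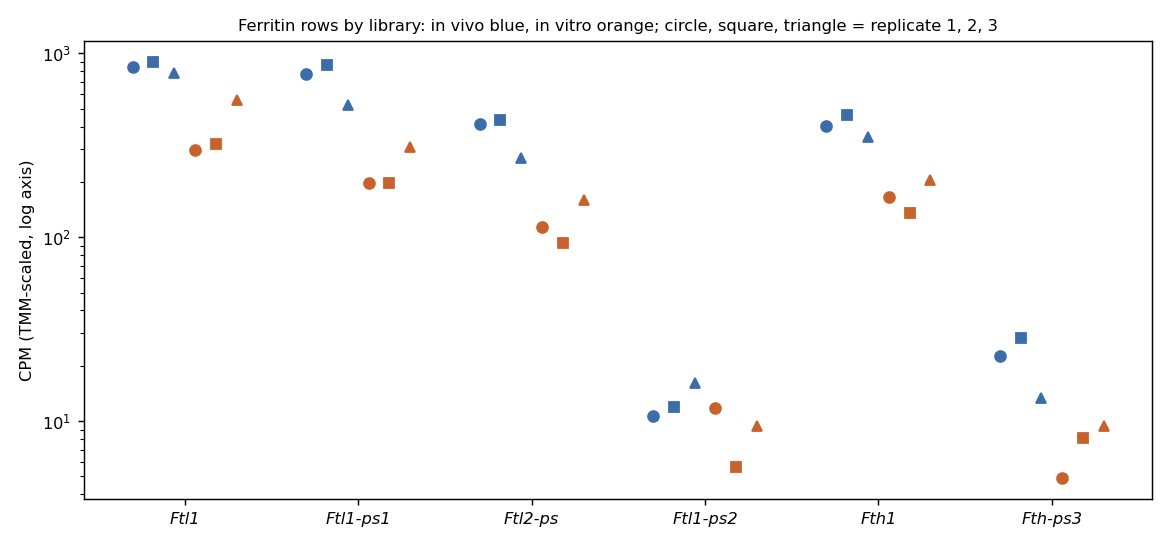
Level of the ferritin light chain rows (Ftl1, Ftl1-ps1, Ftl2-ps, Ftl1-ps2) and of the heavy chain rows (Fth1, Fth-ps3) in CPM on a log axis, 1 point per library, in vivo blue and in vitro orange, with the replicate number as the shape. In every row shown but Ftl1-ps2 the 3 in vitro points lie under the 3 in vivo points.

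The ratio of the Fth1 row to the Ftl1 row overlapped between the groups. Per kilobase of gene, Fth1 was at 0.304, 0.333 and 0.289 of the Ftl1 level in vivo and at 0.357, 0.270 and 0.236 in vitro. The in vitro minus in vivo difference of the log2 ratio was −0.12 (exact two-sided permutation p = 0.6, n = 3 each, adjusted p = 0.6 over 3 ratios). The in vitro values bracketed the in vivo values, and the interval between lowest and highest library was wider in vitro. This ratio rests on the Ftl1 row alone, which took 40.7% to 53.9% of the light chain counts of a library. It is therefore not the ratio of all heavy to all light chain reads. With copies summed, the mean was 2.42-fold lower in vitro for the heavy chain and 2.56-fold lower for the light chain. A ratio of the summed rows was not tested.

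Ireb2, which encodes IRP2 (chromosome 9, 54862658 to 54912534, plus strand), had the opposite direction to ferritin. It was at 30.6, 34.6 and 48.8 CPM in vivo, against 100.4, 61.5 and 104.0 CPM in vitro. All cultured libraries exceeded all in vivo libraries, with in vivo replicate 3 and in vitro replicate 2 nearest to each other. The mean was 2.33-fold higher in vitro (38.0 ± 9.58 and 88.6 ± 23.5 CPM, SD, n = 3 each), the log2 fold change was 1.22 ± 0.37 (SE), and the adjusted p was 0.365 by edgeR, 0.0945 by DESeq2 and 0.0726 by limma-voom. Of the 6 DESeq2 fits that leave out 1 library, 2 called Ireb2, those lacking in vivo replicate 3 (1.45, adjusted p = 0.0245) or in vitro replicate 2 (1.45, adjusted p = 0.0410). The other 4 ran from 1.09 to 1.16, with adjusted p from 0.235 to 0.369. Aco1, which encodes the other iron regulatory protein, overlapped between groups at 39.3 ± 11.6 CPM in vivo, against 33.2 ± 13.2 CPM in vitro (log2 fold change −0.25 ± 0.43), and Fbxl5, the iron-sensing adaptor that marks IRP2 for destruction, was at 17.7 ± 3.11 and 17.2 ± 3.67 CPM (SD, n = 3 each). These 2 genes were named after their values were seen.

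Tfrc, the receptor that brings in transferrin-bound iron (chromosome 16, 32608896 to 32632794, plus strand), was at 36.2, 34.6 and 19.9 CPM in vivo, against 66.1, 47.6 and 30.1 CPM in vitro. In vitro replicate 3 lay among the in vivo libraries. The log2 fold change was 0.66 ± 0.43 (SE), with an adjusted p of 0.637 by edgeR and 0.547 by DESeq2. The ratio of Tfrc to Fth1 per kilobase was 0.0264, 0.0219 and 0.0166 in vivo and 0.118, 0.103 and 0.0429 in vitro, so every in vitro library exceeded every in vivo library. The log2 ratio differed by 1.92 (−5.56 ± 0.34 in vivo and −3.64 ± 0.79 in vitro, SD, n = 3 each). Its exact two-sided permutation p was 0.1, the smallest that 3 against 3 can give, and 0.3 adjusted over 3 ratios. Tfrc is the longer gene (5149 against 1511 bases), and long genes had higher values in vitro across the table. The fitted difference between Tfrc and Fth1 was 1.93 on the log2 scale and 1.33 with an offset on gene length.

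**Figure D3:**
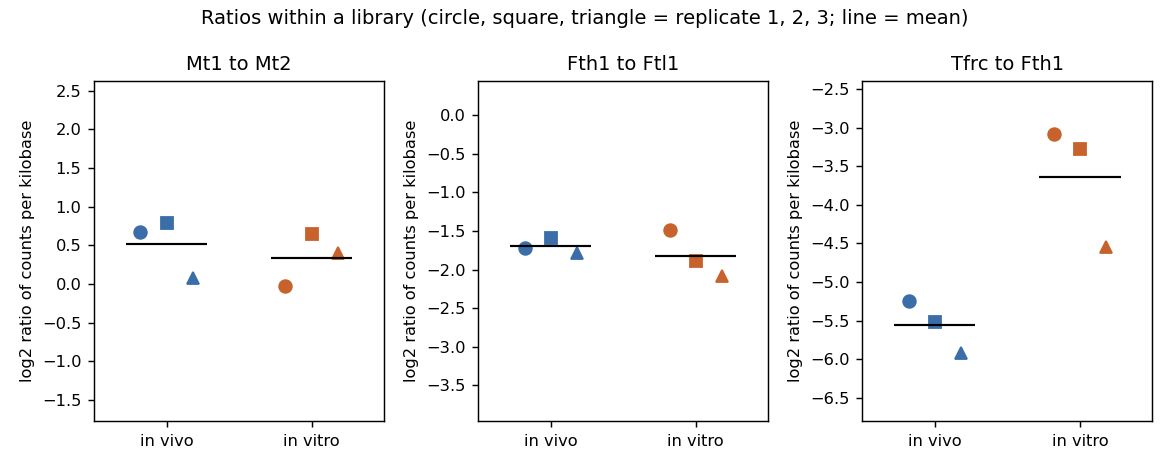
Log2 ratio of counts per kilobase between 2 genes of the same library, for Mt1 to Mt2, Fth1 to Ftl1 and Tfrc to Fth1, on axes of equal span, with points as libraries and lines as means. The first 2 ratios overlap between the groups, whereas Tfrc to Fth1 is between −5.91 and −5.24 in vivo and between −4.54 and −3.09 in vitro. Fth1 to Ftl1 uses the Ftl1 row alone, without the copies of the light chain.

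Slc11a2, which encodes the endosomal iron transporter DMT1 (chromosome 15, 100387898 to 100424209, minus strand), differed widely among the cultured libraries. It was at 14.6, 21.4 and 11.5 CPM in vivo, against 2.80, 23.8 and 4.04 CPM in vitro. In vitro replicates 1 and 3 were thus lower than every in vivo library, and in vitro replicate 2, the library with the most Xist counts, was the highest of all 6. The log2 fold change was −0.62 ± 0.83 (SE, edgeR adjusted p = 0.847). The value depended on single libraries. By edgeR it was −0.17 when in vitro replicate 1 was left out, −0.23 for in vitro replicate 3 and −0.35 for in vivo replicate 2, none of them called by DESeq2 either (adjusted p = 0.966, 0.950 and 0.956). Leaving out in vitro replicate 2, the library against the direction, gave −2.22 by edgeR (adjusted p = 0.338) and −2.18 by DESeq2 (adjusted p = 0.0398). Slc11a2 forms mRNAs with and without an iron-responsive element, which the gene-level counts do not separate, and Gm5475 overlaps it.

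The metallothioneins were the most abundant of the zinc genes and higher on average in culture. Mt1 (chromosome 8, 94178883 to 94180327, plus strand) was at 648, 901 and 778 CPM in vivo, against 839, 1184 and 2263 CPM in vitro. In vitro replicate 1 lay between in vivo replicates 2 and 3. Its log2 fold change was 0.88 ± 0.39 (SE), with an adjusted p of 0.491 by edgeR, 0.338 by DESeq2 and 0.256 by limma-voom.

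Mt2, its neighbour (chromosome 8, 94172618 to 94173567, plus strand), was at 234, 302 and 429 CPM in vivo, against 495, 437 and 991 CPM in vitro. The groups did not overlap, although in vivo replicate 3 and in vitro replicate 2 were nearly equal. Its log2 fold change was 0.99 ± 0.40 (SE), with an adjusted p of 0.453 by edgeR, 0.266 by DESeq2 and 0.1103 by limma-voom. Both differences leaned on in vitro replicate 3, without which edgeR gave 0.39 for Mt1 and 0.54 for Mt2. Together Mt1 and Mt2 stood at 882, 1204 and 1207 CPM in vivo, against 1333, 1622 and 3254 CPM in vitro, a mean 1.89-fold higher in vitro. Their ratio per kilobase ran from 1.05 to 1.72 in vivo and from 0.981 to 1.57 in vitro (difference of the log2 ratio −0.17, exact two-sided permutation p = 0.5, adjusted p = 0.6 over 3 ratios). Mt1 and Mt2 transcripts were 74.2% identical over 306 aligned bases.

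Of the other metallothionein genes, Mt3 had no counts in any library. Mt4, known from stratified squamous epithelium, had 38, 86 and 65 counts in vivo, against 0, 34 and 0 counts in vitro. The zeros allow up to 0.525 CPM in in vitro replicate 1 and 0.391 CPM in in vitro replicate 3 (3 counts, counting error only). Its groups did not overlap, and edgeR gave −2.46 ± 1.68 (SE, adjusted p = 0.659).

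Mtf1, the zinc sensor (chromosome 4, 124802549 to 124849800, plus strand), varied little. It was at 25.0, 22.2 and 25.4 CPM in vivo, against 31.8, 27.9 and 27.99 CPM in vitro. The groups did not overlap, but the difference was small beside its error (log2 fold change 0.27 ± 0.38, SE, edgeR adjusted p = 0.855). The sign turned to −0.05 under scaling by library totals without TMM, which moved the median of all genes to −0.31, and to −0.02 with an offset on gene length. The gene 1110065P20Rik overlaps Mtf1, and reads of overlapping genes cannot be told apart without strand.

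Slc30a1, the zinc exporter (chromosome 1, 191906697 to 191913248, plus strand), was at 46.3, 56.1 and 74.1 CPM in vivo, against 45.8, 71.8 and 128 CPM in vitro. In vitro replicate 3 was again the highest library, as for Mt1 and Mt2, and in vitro replicate 1 the lowest. The log2 fold change was 0.47 ± 0.43 (SE, edgeR adjusted p = 0.754) and 0.0044 without in vitro replicate 3. Its row also covers exons on a fix patch of chromosome 1, and 1700034H15Rik overlaps it. The length given for the row, 10592 bases, is longer than the span on chromosome 1, so values per kilobase are understated for Slc30a1.

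Slc39a10, the importer (chromosome 1, 46807544 to 46925776, minus strand), had 301, 101 and 0 counts in vivo, against 106, 197 and 165 counts in vitro. The zero was in in vivo replicate 3, the library with the most counts and the highest share of ribosomal RNA (47.8%). It allows up to 0.215 CPM (3 counts, counting error only), and whether the transcript was absent was not tested. In vivo replicate 1 had the highest level at 23.5 CPM. In vitro libraries lay between 14.4 and 21.5 CPM. The log2 fold change was 0.79 ± 1.30 (SE, edgeR adjusted p = 0.881), with values of 0.20 when in vivo replicate 3 was left out and 2.14 when in vivo replicate 1 was. The ratio of exporter to importer per kilobase was undefined in in vivo replicate 3 and ran from 1.78 to 6.30 in the other 5 libraries, with the groups overlapping. The length of Slc30a1 understates these ratios by the same factor in each library.

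**Figure D4:**
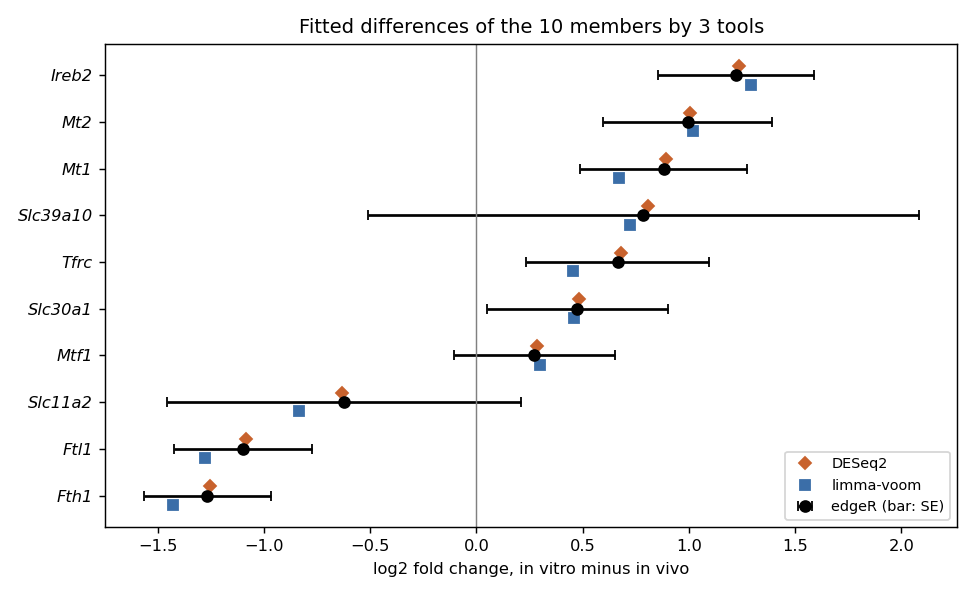
Fitted log2 fold change of each gene (positive where higher in vitro) by edgeR (black, bar for SE), DESeq2 (orange) and limma-voom (blue). The 3 tools give the same sign for each of the 10 genes, from Fth1 at −1.27 to Ireb2 at 1.22 by edgeR.

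Compared per kilobase of gene, the order of levels differed between the groups at its top. In vivo, Ftl1 led with 867 ± 59.6 CPM per kilobase, followed by Mt1 at 807 ± 132, Mt2 at 579 ± 178 and Fth1 at 268 ± 37.2 (SD, n = 3 each). In vitro, Mt1 led with 1487 ± 773, followed by Mt2 at 1153 ± 548, Ftl1 at 405 ± 149 and Fth1 at 112 ± 23.3. Within the in vivo group the ranges of Ftl1 and Mt1, and of Mt1 and Mt2, overlapped. Within the in vitro group those of Mt1 and Mt2 overlapped, and the Ftl1 row was below both in range. This order rests on the Ftl1 row alone: the 4 light chain rows summed, per kilobase of Ftl1, ran from 1641 to 2270 CPM in vivo, above Mt1, and from 637 to 1070 CPM in vitro, where they overlapped both Mt1 and Mt2. The other 6 genes were far lower, between 1.10 and 5.87 CPM per kilobase on average in vivo and between 1.55 and 10.5 in vitro. In vivo the ranges of Tfrc, Slc30a1 and Ireb2 overlapped from neighbour to neighbour, as did those of Mtf1, Slc11a2 and Slc39a10. In vitro the same held for Ireb2, Tfrc and Slc30a1 and for Slc39a10 and Slc11a2, with Mtf1 apart from its neighbours. Slc30a1 is understated here, since its length also counts exons on a fix patch. Its place in both orders and the upper bounds of 5.87 and 10.5 are therefore not settled.

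Gene length moved with the groups across the whole table. The 2743 tested genes of 1001 to 2000 bases had a median log2 fold change of −0.36, with 10.2% at an unadjusted p below 0.05 and lower in vitro, against 5.08% of all genes. The 2121 genes of up to 1000 bases had a median of −0.31, the 3625 genes of 4001 to 8000 bases one of 0.26 and the 1829 genes from 8001 bases up one of 0.31. Ferritin lies on the short side (Fth1 1511 bases, Ftl1 970 bases) and Ireb2 on the long side (8474 bases), in the direction of their own differences, whereas Mt1 (961 bases) and Mt2 (556 bases) ran against their class. With an offset on gene length, added after the data were seen, edgeR gave −0.85 ± 0.33 for Fth1, −0.63 ± 0.34 for Ftl1, 0.94 ± 0.36 for Ireb2, 1.32 ± 0.41 for Mt1 and 1.28 ± 0.40 for Mt2 (SE). No gene was called in that fit (adjusted p = 0.499 for Fth1, 0.623 for Ftl1, 0.499 for Ireb2, 0.426 for Mt1 and 0.430 for Mt2, edgeR). The part of RNA quality in these differences was not tested, nor was that of the primitive endoderm and trophectoderm markers given above.

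**Figure D5:**
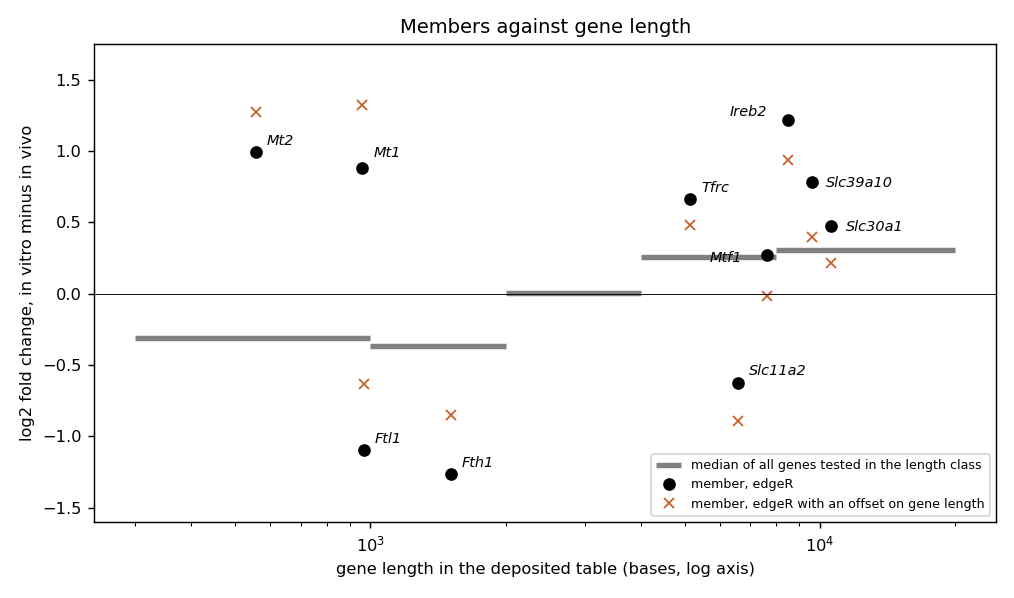
Log2 fold change of the 10 genes (positive where higher in vitro) against gene length on a log axis, by edgeR (black) and with an offset on gene length (orange crosses), with the median of all genes tested in 5 length classes as grey lines (the shortest and longest classes have no outer bound and are drawn to an arbitrary length). Both ferritin genes stay negative and Mt1, Mt2 and Ireb2 stay positive with the offset, and Mtf1 moves from 0.27 to −0.02. Slc30a1 is drawn at 10592 bases, a length that also counts exons on a fix patch.

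Beyond these 10, 126 genes of 9 lists on zinc, iron, iron-sulfur clusters, heme and copper were examined, of which 93 passed the filter. edgeR called none of the 93, with 12 at an unadjusted p below 0.05, where 10.2% of all genes tested were. Of the 12, 3 were higher and 9 lower in vitro, where 5.11% and 5.08% of all genes were. DESeq2 called 4 (Ftl1-ps1, Ftl2-ps and Steap3 lower, Bmp6 higher in vitro), against 2.81% of all genes, and limma-voom called 2, both ferritin copies, against 0.713%. Ftl1-ps1 and Ftl2-ps, both among the 9 lower genes, may repeat the Ftl1 result, since their reads cannot be assigned to a single locus with certainty. The median log2 fold change of the 93 was −0.13, with 36 positive and 57 negative.

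In iron uptake and export, 6 of 17 genes were tested, 4 positive and 2 negative. Steap3, the ferrireductase that prepares iron for release from endosomes, was at 23.8, 28.3 and 42.1 CPM in vivo, against 4.90, 11.9 and 4.30 CPM in vitro. The groups were well apart (log2 fold change −2.15 ± 0.57, SE, adjusted p = 0.327 by edgeR and 0.0176 by DESeq2). Slc25a37, the importer of iron into mitochondria, was at 0.0781, 0 and 1.65 CPM in vivo, against 9.79, 3.66 and 14.97 CPM in vitro (edgeR adjusted p = 0.442). Transferrin itself (Trf) had 4, 0 and 0 counts in vivo, against 0, 11 and 0 in vitro, and the exporter ferroportin (Slc40a1) was at or under 1.17 CPM in every library. Those last 2 genes were named after their values were seen.

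In iron regulation, 10 of 14 genes were tested, Ireb2 among them, 7 positive and 3 negative. Ncoa4, the receptor that delivers ferritin to autophagy for iron release, was at 19.2, 16.3 and 12.3 CPM in vivo, against 44.1, 24.7 and 58.3 CPM in vitro. All cultured libraries were higher (log2 fold change 1.41 ± 0.45, SE, adjusted p = 0.396 by edgeR and 0.0952 by DESeq2). Bmp6, a ligand that induces hepcidin in the liver, was at 0.469, 0 and 0 CPM in vivo, against 5.25, 4.68 and 2.99 CPM in vitro (adjusted p = 0.425 by edgeR and 0.0400 by DESeq2).

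Zinc transporters were mixed. Of 8 tested exporters of the Slc30 family, Slc30a1 included, 3 were positive and 5 negative, and of 11 tested importers of the Slc39 family, Slc39a10 included, 4 were positive and 7 negative. Slc30a2, which loads zinc into vesicles, was at 42.0, 42.1 and 65.1 CPM in vivo, against 19.1, 32.9 and 10.3 CPM in vitro (log2 fold change −1.26 ± 0.49, SE, edgeR adjusted p = 0.442). Slc30a6, of the Golgi, was also lower in every cultured library (17.2 ± 11.7 and 6.89 ± 0.565 CPM). Its in vivo mean leaned on replicate 3: it was at 10.6, 10.2 and 30.6 CPM in vivo, against 6.30, 6.95 and 7.42 CPM in vitro. Slc30a3 was lower in every cultured library too (6.34 ± 3.87 and 0.291 ± 0.505 CPM), and Slc30a9 was higher in every one (6.78 ± 3.62 and 18.1 ± 6.61 CPM, SD, n = 3 each). Slc39a1, an importer at the plasma membrane, was at 209.8, 189 and 124.5 CPM in vivo, against 75.0, 134.5 and 59.6 CPM in vitro, with in vitro replicate 2 overlapping (edgeR adjusted p = 0.460).

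Iron-sulfur assembly showed no common direction, with 14 of 30 tested genes positive and 16 negative (median −0.07). Nubp2, of the cytosolic assembly scaffold, was at 113 ± 14.0 CPM in vivo, against 60.4 ± 11.96 CPM in vitro, and Fdxr, the ferredoxin reductase of mitochondria, at 18.2 ± 12.1 and 5.55 ± 1.81 CPM (SD, n = 3 each). The in vivo mean of Fdxr leaned on replicate 3 (11.5, 10.9 and 32.2 CPM in in vivo replicates 1, 2 and 3). Hspa9, the mitochondrial chaperone, was at 218 ± 54.5 and 318 ± 14.8 CPM (SD, n = 3 each). Heme genes were negative in 14 of 17 (median −0.55), and Pgrmc1, a heme-binding membrane protein, was at 81.6 ± 14.5 CPM in vivo, against 45.3 ± 9.80 CPM in vitro (edgeR adjusted p = 0.455). Of 10 tested copper genes 3 were positive and 7 negative, with the copper chaperone Atox1 at 78.1 ± 18.6 and 49.0 ± 11.9 CPM (SD, n = 3 each). None of the tested genes of these 3 lists was called by edgeR, DESeq2 or limma-voom.

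The X-linked Fthl17 genes encode ferritin-heavy-chain-like proteins of the early embryo. Summed over 9 rows they had 62, 82 and 0 counts in vivo, against 34, 417 and 56 counts in vitro. The most counts were in in vitro replicate 2, the library with the most Xist counts, and none in in vivo replicate 3. Fthl17a, the only one of them to pass the filter, was at 4.06, 2.95 and 0 CPM in vivo, against 5.25, 17.9 and 4.95 CPM in vitro (log2 fold change 2.0004 ± 1.39, SE, edgeR adjusted p = 0.665). Fthl17b was 96.8% to 99.3% identical to Fthl17c, Fthl17d, Fthl17e and Fthl17f over 832 to 842 aligned bases, so reads of these 5 genes cannot be assigned with certainty. The mitochondrial ferritin Ftmt and Ftdc1 had no counts, and Ftdc2 had 7, 0 and 80 counts in vivo and none in vitro.

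The genes whose levels ran most like the sum of Mt1 and Mt2 over the 6 libraries were Scaf4, Nr5a2, Tacc2, Eif4g2 and Dennd5b, with Pearson's r of log2 CPM from 0.980 to 0.996 among 6470 genes compared. This is a description over the same 6 libraries, which differ in depth. Nr5a2, a nuclear receptor, was at 21.2, 25.9 and 27.4 CPM in vivo, against 30.4, 41.5 and 84.7 CPM in vitro, with in vitro replicate 3 highest as for the metallothioneins.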

How the data were processed

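RNA was extracted from frozen blastocysts with a microscale kit and made into libraries with a transposase-based kit, per the labels' protocols. The authors deposited raw counts per gene in 1 table, with gene lengths. FastQC 0.11.2, DESeq2 and the build GRCm39 are named in the submitters' processing notes, and the sources used here do not name the aligner, the counter or the strand option. Gene spans in the table equal RefSeq spans on GRCm38.p6 for 49591 of 49591 genes compared, so coordinates are on that build.

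Libraries were grouped by title. Counts were analysed with edgeR 4.0.16 in R 4.3.3 (filter on low counts by group, TMM, robust dispersions, legacy quasi-likelihood test across all genes, two-sided, Benjamini-Hochberg over 14301 genes), with DESeq2 1.42.0 and limma 3.58.1 (voom with quality weights) as alternatives. SEs come from the F statistic. Each tool was tested on simulated data. Ratios within a library used exact permutation tests. Transcripts were aligned with Biopython 1.88. PCR copies cannot be told from molecules, so a floor of 3 counts covers counting error only. No 2 libraries were copies (chi-square per degree of freedom at least 31.5 within groups). Same-numbered libraries did not deviate together (correlations −0.10, 0.10 and −0.04), and the main fit did not pair them. These correlations cannot exclude a shared mother or preparation.

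The 10 genes and the lists were chosen with earlier results of these data known. Named are the 10, other metallothionein and ferritin genes, up to 4 genes of smallest p per list, any called gene of a list, the 5 genes most like the Mt1 and Mt2 sum, and genes said to be named after their values were seen.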

Additional observations from a re-analysis of the deposited data

How the results depend on the processing

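Of the refits of single genes, 221 kept the direction and the side of the 0.05 threshold, 11 passed it in the same direction, all by DESeq2 or limma-voom, and 2 turned sign, both for Mtf1 (−0.0451 with library totals alone and −0.0186 with the offset on gene length). The count of genes called was 0 by edgeR with the other scalings, the stricter filter, robust moderation off, ribosomal RNA genes left out, the replicate block, or any library left out. It was 391 without a filter, 3 with the newer quasi-likelihood form, 459 by DESeq2 and, with DESeq2, 294, 152 and 907 on leaving out in vivo replicate 1, 2 or 3 and 255, 855 and 373 on leaving out in vitro replicate 1, 2 or 3, and 102 by limma-voom. Of the 10 genes, edgeR called 0 in each of these fits, also without a filter and with the newer form, DESeq2 called 1 (0 to 2 with 1 library left out) and limma-voom 2. The cause of these differences was not tested.

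With the replicate block, edgeR gave −1.28 for Fth1, −1.16 for Ftl1 and 1.21 for Ireb2 (adjusted p = 0.499, 0.528 and 0.548). Without 1 library in turn, the difference of the log2 ratio of Tfrc to Fth1 ran from 1.64 to 2.37, that of Mt1 to Mt2 from −0.39 to 0.01 and that of Fth1 to Ftl1 from −0.29 to 0.01. Without in vivo replicate 3 edgeR gave −1.14 for Ftl1, 1.45 for Ireb2, 0.89 for Mt1 and 1.26 for Mt2, and leaving out in vitro replicate 2 gave −0.99, 1.41, 0.98 and 1.19. The ratio of Slc30a1 to Slc39a10 was not tested, since 1 library had 0 counts of Slc39a10.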
